A study of Mus musculus with 57 samples.

Results

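The genes described here are the 4 kinases that phosphorylate the translation factor eIF2 under stress (Eif2ak1, Eif2ak2, Eif2ak3 and Eif2ak4), the phosphatase subunits that reverse this (Ppp1r15a and Ppp1r15b), the mitochondrial stress messenger Dele1 and the substrate itself, Eif2s1. They were chosen by name, as 8 of the 52853 genes in the count tables, and all 8 passed the filter on low counts in every comparison. RNA was sequenced from whole adipose tissue of male Mfn2 knock-in (KI) mice homozygous for the R707W change and of wild-type (WT) littermates on a C57BL/6J background. All KI mice descend from 1 CRISPR-Cas9 founder, and no cell type was sorted. The mice went onto chow or a high-fat diet (HFD; 45% of kcal from fat) aged 5 weeks and stayed on it for 6 months. The 6 groups were inguinal white adipose tissue (WAT) on HFD from 8 KI and 8 WT mice, inguinal WAT on chow from 6 KI and 7 WT mice, and brown adipose tissue (BAT) on HFD from 6 KI and 6 WT mice.

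When eIF2α, the product of Eif2s1, is phosphorylated, most translation slows while the mRNA of the transcription factor Atf4 is translated better; this is the integrated stress response. Each kinase senses another stress: Eif2ak1 (HRI) responds to heme shortage and, through Dele1 released by the protease Oma1, to mitochondrial stress, Eif2ak2 (PKR) to double-stranded RNA, Eif2ak3 (PERK) to unfolded protein in the endoplasmic reticulum, and Eif2ak4 (GCN2) to uncharged tRNA. Ppp1r15a (GADD34) is induced during the response, and Ppp1r15b (CReP) is expressed all the time; both guide protein phosphatase 1 to eIF2α. These data hold mRNA, not the phosphorylation of eIF2α or the activity of any kinase.

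The promoters of Ppp1r15a and Eif2ak2 are shown because the former is the member that changed most with genotype and the latter the kinase known to be induced by interferon. Each line runs from 250 bases before to 50 after the RefSeq start site on the gene's own strand, in GRCm38.p6, the build of the count tables.
Ppp1r15a, chr7:45526219-45526518, minus strand: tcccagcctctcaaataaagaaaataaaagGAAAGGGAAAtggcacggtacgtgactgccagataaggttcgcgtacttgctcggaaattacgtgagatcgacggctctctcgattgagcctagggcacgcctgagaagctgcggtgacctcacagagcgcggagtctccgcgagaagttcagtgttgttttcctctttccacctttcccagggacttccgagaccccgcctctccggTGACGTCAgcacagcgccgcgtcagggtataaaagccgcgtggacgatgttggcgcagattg
Eif2ak2, chr17:78882523-78882822, minus strand: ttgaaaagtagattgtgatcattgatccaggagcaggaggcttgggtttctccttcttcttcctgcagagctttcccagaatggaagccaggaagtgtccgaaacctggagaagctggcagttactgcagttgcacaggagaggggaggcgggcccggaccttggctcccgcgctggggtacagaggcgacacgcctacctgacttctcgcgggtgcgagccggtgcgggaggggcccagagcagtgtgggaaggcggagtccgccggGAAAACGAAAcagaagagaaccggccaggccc
Capitals mark 10 bases matching the interferon element (GAAA, any pair of bases, GAAA) in both and 8 bases of the cyclic AMP response element TGACGTCA in Ppp1r15a. The interferon element lies at -220 to -211 from the start site of Ppp1r15a, at 19 to 28 after that of Eif2ak2 and, among the other members, at -212 to -203 from that of Eif2s1; of all 32851 mouse promoters of this length, 3.44% hold it on either strand. TGACGTCA, which reads the same on both strands and was searched after the Ppp1r15a promoter had been read, lies at -12 to -5 there and in none of the other member entries, and 1.79% of all promoters hold it. The C/EBP-ATF composite element TGATGNAA, found in 3.97% of all promoters, was in none of the 7 promoter entries of the 6 members that matched the RefSeq table, which says only that these letters are not in these windows. The motifs of different names did not overlap.

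The tables held 41 mouse columns from 57 libraries. Counted reads per mouse were 17572752 to 25680411 in inguinal WAT on HFD, 8668279 to 11720458 in inguinal WAT on chow and 8042591 to 10522554 in BAT. In inguinal WAT on HFD, 1 column stood for the 2 libraries of each mouse. It was taken as their sum, as how they were combined is not given in the sources used here. Levels are given as CPM, read counts scaled to the size of their library and normalised over all 41 columns, and a gene is called where edgeR's quasi-likelihood test, fitted within each tissue and diet, gave a Benjamini-Hochberg adjusted p below 0.01 over all genes tested. Mfn2 itself was not called in any tissue (log2 fold change 0.34, adjusted p = 0.0114, inguinal WAT on HFD); the knock-in changes a codon, so its level checks no label. Ucp1, the brown adipocyte uncoupling protein, averaged 6156 ± 1207 CPM in BAT of WT mice (SD, n = 6) and 0.614 ± 0.513 CPM in inguinal WAT of WT mice on HFD (n = 8). KI mouse 4 on chow stood apart: its 6 skeletal muscle genes summed to 56832 CPM, against 38.7 to 285 in the other KI mice and 15.9 to 666 in the WT mice. KI mouse 6 in BAT also stood apart, with Ppp1r15a, Atf4 and Trib3 at or near WT levels. WT mouse 4 on chow stood apart in other markers: its 5 epithelium markers summed to 145 CPM, against 1.03 to 2.64 in the other WT mice, its 7 macrophage markers to 1947 CPM, against 541 to 1120, and its 7 lymphocyte markers to 90.0 CPM, against 10.1 to 52.8. Where leaving out 1 of these 3 mice moved the genotype difference of a member by over 1.5 times or turned its sign, the value without that mouse stands beside it. Lymphocyte marker sums were higher still in KI mouse 3 on chow (356 CPM, group median 7.32). The same held in inguinal WAT on HFD for KI mouse 2 (555 CPM, group median 9.79) and WT mouse 2 (387 CPM, group median 17.4). These mice were left out only where each mouse was left out in turn.

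The members lie on 8 chromosomes of GRCm38, each a protein-coding gene whose exons together were counted: Ppp1r15a at chr7:45522916-45526268 (minus strand), Ppp1r15b at chr1:133131143-133139783 (plus), Dele1 at chr18:38250249-38262629 (plus), Eif2ak1 at chr5:143817788-143904251 (plus), Eif2ak2 at chr17:78852564-78882573 (minus), Eif2ak3 at chr6:70844515-70905245 (plus), Eif2ak4 at chr2:118388618-118475234 (plus) and Eif2s1 at chr12:78861819-78887010 (plus). Exons of genes on the opposite strand overlap 11.4% of the exonic bases of Ppp1r15b, 8.59% (Aimp2) and 3.03% (Ankrd61) of those of Eif2ak1, 8.05% of those of Eif2ak3 and less than 5% of those of Eif2ak2, Dele1 and Ppp1r15a. Whether reads were counted by strand is not given in the sources used here, so reads in these stretches may belong to either gene.

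Ppp1r15a, the inducible phosphatase subunit, was higher in KI than in WT mice in all 3 settings, and was the member with the largest difference in each. In inguinal WAT on HFD its lowest, median and highest levels were 32.7, 41.5 and 47.7 CPM in KI mice and 13.3, 18.5 and 28.9 CPM in WT mice. The ranges of the genotypes did not overlap, as was so for 4.53% of all genes in either direction. The log2 fold change was 1.08 (SE 0.136, 95% interval 0.80 to 1.37, adjusted p = 1.55e-05), or 2.12-fold; 11.5% of the 16471 genes tested were called in this comparison, 1023 of 1886 of them higher in KI mice (1820 of 2475 when scaled by library size only). In bulk tissue, fewer cells of a type and less RNA per cell cannot be told apart, which holds for every level given here.

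On chow, Ppp1r15a ranged from 25.6 over a median of 35.0 to 42.2 CPM in KI mice and from 12.9 over 17.8 to 19.9 CPM in WT mice. The groups did not overlap, as for 4.22% of all genes. The log2 fold change was 1.06 (SE 0.134, 95% interval 0.77 to 1.35, adjusted p = 2.70e-04), with 3.23% of 14629 genes called (1.99% to 3.36% over leaving out each mouse). It was 1.08 (adjusted p = 6.48e-04) without KI mouse 4.

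In BAT, the 6 KI mice ranged more widely than in inguinal WAT, from 22.6 over a median of 67.5 to 98.3 CPM, while WT mice ranged from 17.0 over 22.4 to 25.6 CPM. KI mouse 6 lay among the WT mice and the other 5 KI mice above them, whereas 3.69% of all genes had no overlap. The log2 fold change was 1.55 (SE 0.256, 95% interval 1.00 to 2.10, adjusted p = 0.00304), with 1.83% of 13267 genes called (1.00% to 2.33% over leaving out each mouse). Without KI mouse 6 it was 1.74, with an SE of 0.138 (adjusted p = 1.72e-06).

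**Figure D1:**
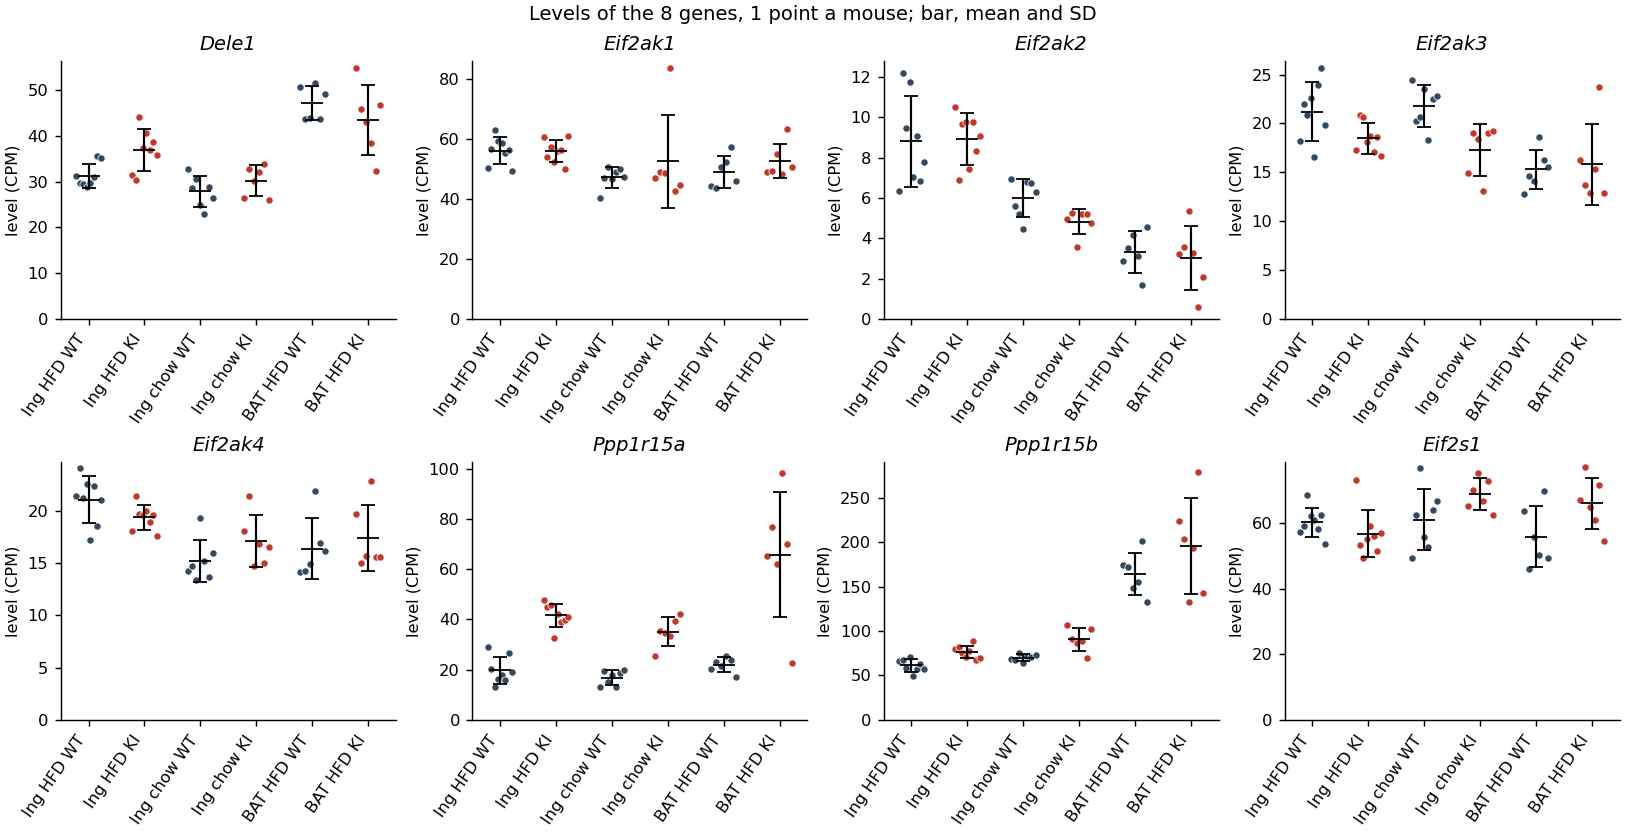
Level of each of the 8 genes in each mouse (CPM, y axis; the scale differs between panels) in the 6 groups (x axis), with the mean and SD of each group. Ppp1r15a lies higher in KI than in WT mice in each tissue and diet, apart from KI mouse 6 in BAT at 22.6 CPM, and no kinase shows a difference that passed the test.

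Ppp1r15b, the constitutive phosphatase subunit, was called in 1 of the 3 settings. In inguinal WAT on HFD it ranged from 67.5 over a median of 76.3 to 88.9 CPM in KI mice and from 49.3 over 60.8 to 70.9 CPM in WT mice, and 5 of 8 KI mice exceeded the highest WT mouse. Its log2 fold change of 0.33 (SE 0.0786, 95% interval 0.16 to 0.49) passed the threshold with an adjusted p of 0.00598. This call did not hold when any of 8 of the 16 mice was left out (adjusted p up to 0.0148), with the replicate number as a block (0.33, adjusted p = 0.0156) or when all 6 groups were fitted together (adjusted p = 0.0356).

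On chow, Ppp1r15b ranged from 70.0 over 89.7 to 107 CPM in KI mice and from 64.2 over 71.2 to 75.2 CPM in WT mice, with 5 of 6 KI mice above the highest WT mouse. The log2 fold change, 0.36 (SE 0.0862, 95% interval 0.18 to 0.55), was similar in size, and its adjusted p of 0.0171 missed the threshold. DESeq2 called it (adjusted p = 0.0015), as did the fit without KI mouse 5 (0.43, adjusted p = 0.00227). In BAT it ranged from 133 to 278 CPM in KI mice and from 133 to 201 CPM in WT mice, and the log2 fold change of 0.22 (95% interval -0.13 to 0.56, adjusted p = 0.438) was not called.

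Per kilobase of gene length, a scale on which the 2 subunits can be set side by side, Ppp1r15b was the more abundant in BAT of WT mice, at 29.3 ± 4.25 CPM per kb (SD, n = 6) against 7.47 ± 1.03 for Ppp1r15a. The ratio of Ppp1r15a to Ppp1r15b was 0.257 ± 0.0344 in BAT of WT mice and 0.651 ± 0.254 in KI mice, where KI mouse 6 had the lowest value, 0.302. In inguinal WAT it was 0.615 ± 0.150 in WT and 1.04 ± 0.120 in KI mice on HFD (n = 8 each), and 0.457 ± 0.0889 in WT (n = 7) and 0.757 ± 0.197 in KI mice (n = 6) on chow. The lowest KI ratio on HFD, 0.838, lay just above the highest WT ratio, 0.828, and in the other settings the ranges overlapped. Inguinal WAT of KI mice on HFD was the group whose mean level of the inducible subunit was as high per length as that of the constitutive subunit (14.2 ± 1.60 against 13.7 ± 1.29 CPM per kb).

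**Figure D2:**
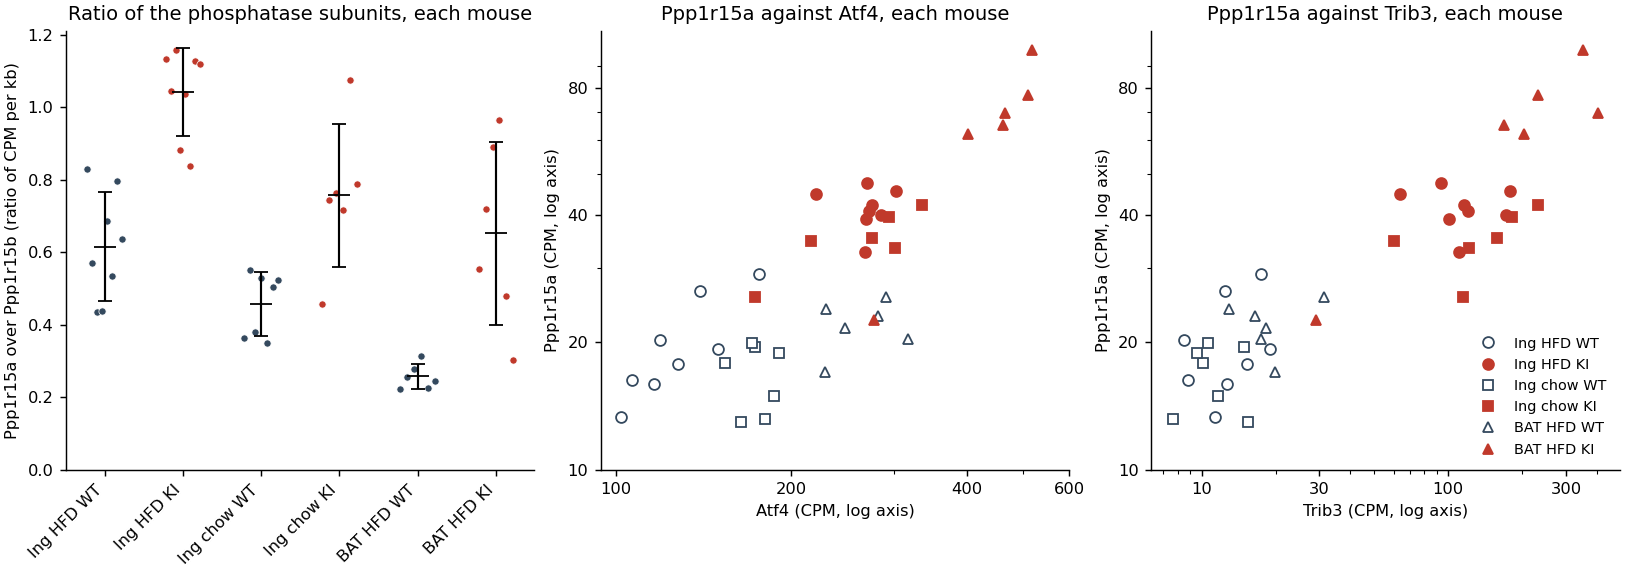
Ratio of Ppp1r15a to Ppp1r15b per kb in each mouse with the mean and SD of each group, and Ppp1r15a (CPM, log axis) against Atf4 and against Trib3 (CPM, log axes), 1 point per mouse. The ratio is higher in KI groups, and KI mouse 6 in BAT (22.6 CPM Ppp1r15a, 29.2 CPM Trib3) lies near the WT mice.

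Dele1, which carries mitochondrial stress to Eif2ak1, was not called in any genotype comparison. In inguinal WAT on HFD it ranged from 30.2 over a median of 37.0 to 44.2 CPM in KI mice and from 28.9 over 30.3 to 35.6 CPM in WT mice, and 6 of 8 KI mice exceeded the highest WT mouse. The other KI mice, at 30.2 and 31.5 CPM, lay within the WT range, and the log2 fold change was 0.24 with an adjusted p of 0.0306. On chow Dele1 ranged from 26.0 to 33.8 CPM in KI and from 22.9 to 32.8 CPM in WT mice (log2 fold change 0.11, adjusted p = 0.534). In BAT the values were 32.3 to 54.7 CPM in KI and 43.6 to 51.5 CPM in WT mice (log2 fold change -0.16, adjusted p = 0.457). The difference between BAT and inguinal WAT in the KI effect on Dele1, -0.36 (95% interval -0.64 to -0.09), was not called either (adjusted p = 0.101). Oma1, the protease that releases Dele1, differed between the genotypes by -0.26 in BAT on the log2 scale (adjusted p = 0.152), by -0.20 in inguinal WAT on chow (adjusted p = 0.326) and by -0.05 on HFD (adjusted p = 0.706), on levels of 9.74 to 17.5 CPM across all mice.

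None of the 4 kinases was called between KI and WT mice in any of the 3 settings, by edgeR or by DESeq2. The interval of each difference bounds its size. For Eif2ak1, the kinase downstream of Dele1, the log2 fold change on HFD was 0.003 in inguinal WAT, with a 95% interval of -0.12 to 0.13 (adjusted p = 0.982). Levels were 50.0 to 60.8 CPM in KI and 49.2 to 63.0 CPM in WT mice, so the ranges coincided almost fully. In BAT the KI mice spanned 48.3 to 63.3 CPM and the WT mice 43.6 to 57.2 CPM, and the log2 fold change was 0.06 (95% interval -0.14 to 0.26, adjusted p = 0.732).

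On chow Eif2ak1 stood at 83.6 CPM in KI mouse 4, the mouse with the high skeletal muscle genes, and at 42.6 to 48.8 CPM in the other KI mice, against 40.2 to 50.5 CPM in WT mice. The log2 fold change was 0.14 (95% interval -0.15 to 0.44, adjusted p = 0.561) with that mouse and -0.03 (SE 0.0734, adjusted p = 0.841) without it, so its sign rests on that mouse. The 3 skeletal muscle genes that passed the filter there, Acta1, Mylpf and Tnnt3, had a median log2 fold change of 5.88 and adjusted p-values of 0.102 to 0.172. The part of muscle RNA in the level of Eif2ak1 was not tested.

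Eif2ak3, the endoplasmic reticulum kinase, had log2 fold changes below 0 in inguinal WAT on both diets, neither of them called. On chow it ranged from 13.0 over a median of 18.7 to 19.2 CPM in KI mice and from 18.3 over 22.5 to 24.4 CPM in WT mice. The ranges overlapped between 18.3 and 19.2 CPM, where most KI mice lay, and 2 of 6 KI mice lay below every WT mouse. The log2 fold change was -0.34 (SE 0.111, 95% interval -0.58 to -0.11, adjusted p = 0.0685). It was -0.27 (adjusted p = 0.133) without KI mouse 4, which held the lowest value. On HFD, levels were 16.7 to 20.9 CPM in KI and 16.6 to 25.7 CPM in WT mice, and the log2 fold change was -0.19 (95% interval -0.38 to -0.003, adjusted p = 0.146). In BAT, KI and WT mice had medians of 14.5 and 15.1 CPM, with a log2 fold change of 0.004 (adjusted p = 0.991), which was 0.07 (adjusted p = 0.822) without KI mouse 6.

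Eif2ak4, the amino acid sensor, ranged from 17.6 to 21.4 CPM in KI and from 17.2 to 24.1 CPM in WT mice in inguinal WAT on HFD. The log2 fold change was -0.11 (95% interval -0.27 to 0.04, adjusted p = 0.318) there, 0.16 on chow (95% interval -0.09 to 0.41, adjusted p = 0.426) and 0.06 in BAT (95% interval -0.26 to 0.38, adjusted p = 0.858). It was 0.24 (adjusted p = 0.177) on chow without WT mouse 4, which held the highest value of its group, and 0.10 (adjusted p = 0.737) in BAT without KI mouse 6. The KI effect differed by -0.26 between HFD and chow, with an adjusted p of 0.268.

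Eif2ak2, the double-stranded RNA sensor, was the least abundant kinase, with 4 to 37 counts per mouse in BAT of KI mice and 12 to 32 in WT mice. Its level of 0.609 CPM in BAT KI mouse 5 came from 4 counts. At this depth its BAT log2 fold change of -0.17 had a 95% interval of -0.93 to 0.59 (adjusted p = 0.813), the widest of any member, and it was -0.08 (adjusted p = 0.923) without KI mouse 6. In inguinal WAT on HFD, where 136 to 300 counts per mouse stood behind it, it ranged from 6.87 to 10.5 CPM in KI and from 6.33 to 12.2 CPM in WT mice (log2 fold change 0.03, 95% interval -0.27 to 0.32, adjusted p = 0.929). On chow the KI mice had 3.59 to 5.26 CPM and the WT mice 4.44 to 6.92 CPM (log2 fold change -0.32, 95% interval -0.64 to -0.001, adjusted p = 0.204).

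Eif2s1, which encodes the phosphorylated subunit, ranged from 49.6 to 73.1 CPM in KI and from 53.6 to 68.8 CPM in WT mice in inguinal WAT on HFD, with a log2 fold change of -0.08 (95% interval -0.23 to 0.07, adjusted p = 0.496). On chow the values were 62.6 to 75.4 CPM in KI and 49.3 to 76.8 CPM in WT mice (0.16, adjusted p = 0.321). In BAT they were 54.7 to 77.1 CPM in KI and 46.2 to 69.9 CPM in WT mice (0.20, 95% interval -0.04 to 0.45, adjusted p = 0.291). The substrate was not called in any genotype comparison.

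**Figure D3:**
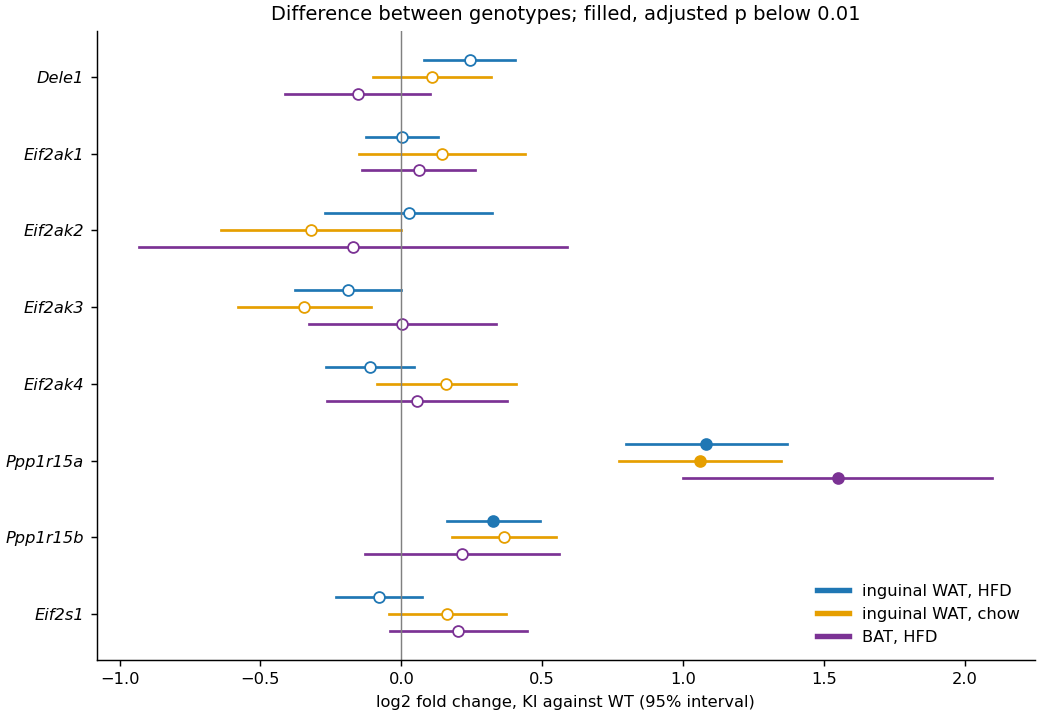
Log2 fold change of KI against WT mice for the 8 genes in inguinal WAT on HFD, inguinal WAT on chow and BAT on HFD, with 95% intervals; filled symbols mark an adjusted p below 0.01. Ppp1r15a is filled in all 3 settings (1.08, 1.06 and 1.55), Ppp1r15b in inguinal WAT on HFD only (0.33), and no kinase is filled.

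Whether the KI effect differed between diets or tissues was tested as an interaction. No member was called, where 0.632% of 17400 genes (0.392% to 1.53% over leaving out each mouse) were called between the diets and 2.82% of 17214 between the tissues (36 of 110 and 272 of 485 of them higher; 112 of 175 and 182 of 475 when scaled by library size only). By unadjusted p below 0.05, 1 member (Eif2ak4) passed between the diets, where 2927 of all 17400 genes did. Between the tissues 2 members (Dele1 and Eif2s1) passed, where 3794 of all 17214 genes did. DESeq2 called 0 members in both, with 2.38% and 4.9% of all genes called. For Ppp1r15a the diets differed by 0.03 (95% interval -0.37 to 0.44, adjusted p = 0.96) and BAT exceeded inguinal WAT by 0.50 (95% interval -0.07 to 1.07, adjusted p = 0.301). The latter ranged from 0.35 to 0.68 over leaving out each mouse, with the lowest adjusted p at 0.0394. For Ppp1r15b the corresponding differences were -0.03 (adjusted p = 0.938) and -0.07 (adjusted p = 0.864).

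Between BAT and inguinal WAT of WT mice on HFD, 5 of the 8 members were called, a share near that of all genes, 57.1% of 16271 (4498 of 9298 higher in BAT; 2257 of 10847 when scaled by library size only). Whether the tissues were sequenced together is not given in the sources used here, so tissue and any difference in sequencing cannot be told apart. Scaling by library size only moved the median of all genes by -0.52 on the log2 scale, so directions are relative to the other genes. Ppp1r15b was higher in BAT under either scaling, by 1.43 (adjusted p = 6.02e-10) and by 0.90 with library size only. Its BAT range of 133 to 201 CPM in WT mice lay wholly above the 49.3 to 70.9 CPM of inguinal WAT. The ranges of Dele1 and Eif2ak2 did not overlap between the tissues either, and how many of all genes had no overlap was not counted here. Dele1 was higher in BAT by 0.60 (adjusted p = 1.98e-06), which came to 0.07 (adjusted p = 0.523) with library size only.

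Among the kinases, Eif2ak2 was lower in BAT by -1.40 on the log2 scale (adjusted p = 2.28e-05), Eif2ak3 by -0.46 (adjusted p = 0.00131) and Eif2ak4 by -0.36 (adjusted p = 0.00821). These directions were the same with library size only, and the Eif2ak4 call did not hold when any of 8 of the 14 mice was left out (adjusted p up to 0.0235). Eif2ak1 (-0.19, adjusted p = 0.0458), Eif2s1 (-0.10, adjusted p = 0.334) and Ppp1r15a (0.16, adjusted p = 0.39) were not called; with library size only the first became -0.72 and the next -0.64, both called, and Ppp1r15a became -0.37 (adjusted p = 0.0617).

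Between the diets in WT inguinal WAT, 27.7% of 16318 genes were called and 1 member was among them. Eif2ak4 ranged from 17.2 over a median of 21.3 to 24.1 CPM on HFD and from 13.4 over 14.7 to 19.3 CPM on chow, a log2 difference of 0.46 (SE 0.0938, 95% interval 0.26 to 0.65, adjusted p = 8.88e-04). Eif2ak1 (0.24, adjusted p = 0.0106), Eif2ak2 (0.54, adjusted p = 0.0131) and Ppp1r15b (-0.21, adjusted p = 0.0367) lay close to the threshold without passing it. For Dele1 (0.16, adjusted p = 0.132), Ppp1r15a (0.23, adjusted p = 0.257), Eif2ak3 (-0.05, adjusted p = 0.7) and Eif2s1 (-0.03, adjusted p = 0.794) the WT diets were not told apart. Whether the diets were sequenced together is not given either, so diet and any difference in sequencing cannot be told apart here. The HFD mice had 2 libraries each.

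**Figure D4:**
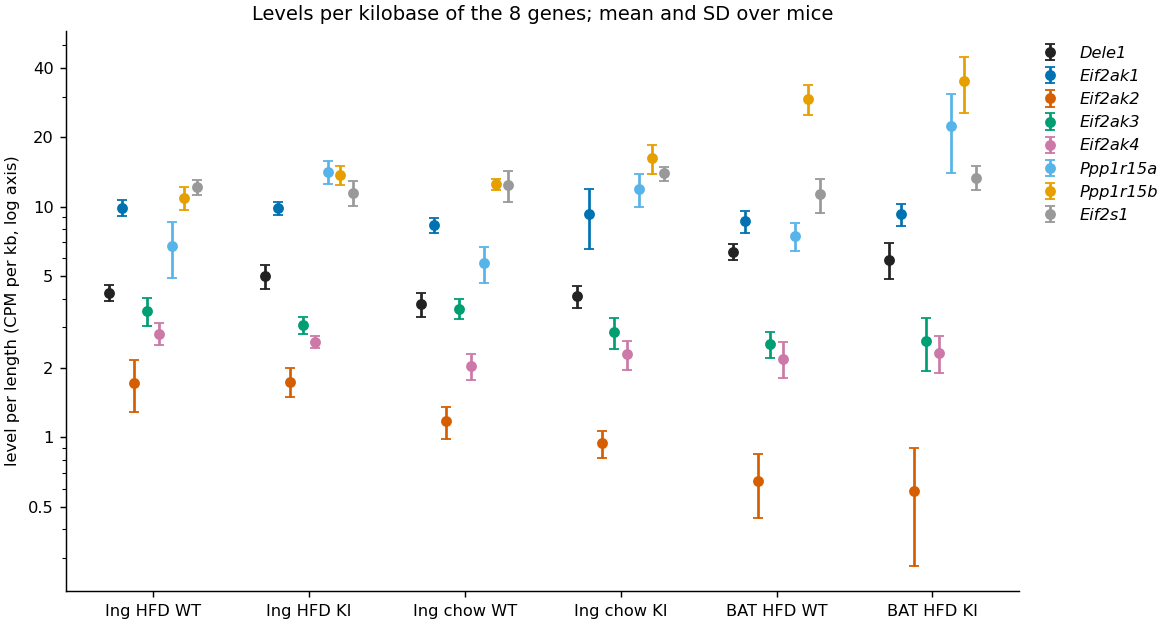
Mean level per kilobase of gene length (CPM per kb, log axis) of the 8 genes in the 6 groups, with SD. Ppp1r15b reaches 29.3 CPM per kb in BAT of WT mice, and Eif2ak2 lies lowest in every group, at 0.589 to 1.75 CPM per kb.

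Per length, Eif2ak1 was the most abundant of the 4 kinase mRNAs in every group, with 54.9% to 62.6% of their summed level as group means. In WT mice the share of Eif2ak1 was 61.6% ± 2.86 in BAT (SD, n = 6), 55.2% ± 3.23 in inguinal WAT on HFD (n = 8) and 54.9% ± 3.23 on chow (n = 7). Eif2ak3 held 17.5% to 23.9%, Eif2ak4 13.4% to 15.8% and Eif2ak2 4.06% to 10.1%. Eif2s1 itself stood at 11.3 to 13.9 CPM per kb across the groups, above each kinase. Ordered by mean CPM over the 6 groups, neighbouring groups overlapped for every member, except Ppp1r15b between BAT of WT mice and inguinal WAT of KI mice on chow.

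The genes around the members were described by lists. Of 30 downstream targets of ATF4 and CHOP tested in inguinal WAT on HFD, 16 were higher in KI mice and 0 lower. This is 53.3% of the list against 11.5% of all genes, with a median log2 fold change of 0.57 against 0.01 over all genes. On chow 9 of 29 (31.0%, against 3.23% of all genes) were higher and 0 lower (median 0.57). DESeq2 put this count at 17, with 7.66% of all genes called. In BAT 10 of 29 (34.5%, against 1.83% of all genes) were higher and 0 lower (median 1.04). The count was 14 without KI mouse 6 (2.33% of all genes) and 21 by DESeq2 (5.39% of all genes). It was 6 without any of KI mice 1, 2 or 4 or WT mice 1 to 4, and 5 without WT mouse 6. Over leaving out each mouse, 1.00% to 2.33% of all genes were called. Trib3, a pseudokinase induced by both factors, rose most in each setting, by 3.18 (adjusted p = 4.72e-08), 3.65 (adjusted p = 7.67e-06) and 3.54 (adjusted p = 0.00245). The smallest called rises were those of Ero1l on HFD (0.45), Aldh18a1 on chow (0.81) and Phgdh in BAT (0.98), which encode an oxidase of the endoplasmic reticulum, a proline synthesis enzyme and the entry enzyme of serine synthesis.

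Atf4, whose product activates Ppp1r15a, ranged from 221 to 302 CPM in KI and from 102 to 176 CPM in WT mice in inguinal WAT on HFD, with a log2 fold change of 1.06 (adjusted p = 5.35e-07). On chow it was 0.60 (adjusted p = 0.0112) and in BAT 0.68 (adjusted p = 0.0148), neither called; without KI mouse 6 the BAT value was 0.80 (adjusted p = 0.00114). Ddit3, which encodes CHOP, another activator of Ppp1r15a, rose in all 3 settings, by 1.37 (adjusted p = 4.04e-08), 1.22 (adjusted p = 1.88e-05) and 2.15 (adjusted p = 0.00851); the BAT call did not hold when any of 10 of the 12 mice was left out (adjusted p up to 0.0257). In BAT KI mouse 6, Atf4 stood at 277 CPM and Trib3 at 29.2 CPM, within the WT ranges of 229 to 318 and 12.9 to 31.4 CPM, while Ddit3, at 168 CPM, lay above the WT range of 43.6 to 111 CPM. In that mouse the low Ppp1r15a came with low Atf4 and Trib3. BAT KI mouse 5 had less Ddit3, 115 CPM, yet held Ppp1r15a at 69.8 CPM and Trib3 at 406 CPM. What set the level of Ppp1r15a was not tested.

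Of the 14 partners of eIF2, its exchange factor eIF2B and phosphatase 1, 2 rose in inguinal WAT on HFD, the eIF2B subunits Eif2b3 (0.62, adjusted p = 1.28e-04) and Eif2b5 (0.22, adjusted p = 0.00379). This is 14.3% of the list, near the 11.5% of all genes. The Eif2b5 call did not hold without any of KI mouse 6 and WT mice 1 and 4 (adjusted p up to 0.0185). Nor did it hold with the replicate block or with no filter on low counts. DESeq2 called 4, with 16.5% of all genes called. In BAT Eif2b3 (0.54, adjusted p = 0.00857) and Eif2s2, the eIF2β subunit (0.50, adjusted p = 0.00829), rose, 14.3% of the list against 1.83% of all genes. Neither call held when any of 10 of the 12 mice was left out (adjusted p up to 0.0274). On chow edgeR called 0 of 14 (3.23% of all genes) and DESeq2 3 (Eif2s2, Eif2b5 and Ppp1cb), with 7.66% of all genes called. The median there was 0.14, with 13 of 14 values above 0. The list medians were 0.12 in inguinal WAT on HFD and 0.19 in BAT.

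Of 19 regulators of the kinases and of Dele1, 1 was lower in inguinal WAT on HFD: Nck1, an adaptor that counters Eif2ak3 signalling (-0.37, adjusted p = 6.43e-05). This is 5.26% of the list, below the 11.5% of all genes. The count was 2 by DESeq2 (16.5% of all genes) and 7 with library size only (15%). It was also 2 without any of KI mice 2 and 4 and WT mouse 8 (14.1%, 9.89% and 10.4% of all genes). In BAT 1 was higher, Map3k20 (0.64, adjusted p = 0.00365), the ribosome-collision kinase upstream of Eif2ak4. This is 5.26% of the list against 1.83% of all genes. Map3k20 was not called without any of WT mice 3, 4 and 6 (adjusted p up to 0.0124). DESeq2 called 2 there (5.39% of all genes) and the fit of all 6 groups 3 (5.15%). On chow edgeR called 0 of 19 (3.23% of all genes) and DESeq2 2 (Sil1 and Hsp90ab1), with 7.66% of all genes called. The list medians were 0.07 on HFD, 0.10 on chow and -0.01 in BAT.

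Interferon-stimulated genes, a group to which Eif2ak2 belongs, were lower in KI mice where they were called. In inguinal WAT on HFD 0 of 25 were higher and 4 lower, from Rsad2 (-0.96, adjusted p = 4.21e-05) over Ifi44 and Mx2 to Oasl2 (-0.57, adjusted p = 0.00263). This is 16% of the list, near the 11.5% of all genes, and the list median was -0.34. The count was 1, Rsad2, when all 6 groups were fitted together (7.67% of all genes). It was 7 without any of KI mice 2 and 4 and WT mouse 7 (14.1%, 9.89% and 11.3% of all genes). On chow edgeR called 0 of 24 and DESeq2 0, with a median of -0.34; the list summed to 365 to 576 CPM in KI mice, 1086 CPM in WT mouse 1 and 403 to 601 CPM in the other WT mice. In BAT edgeR called 0 of 22 (1.83% of all genes) and DESeq2 2 (Irf9 and Mx2, with 5.39% of all genes called). The median there was -0.38. Eif2ak2 itself, given above, was not called.

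**Figure D5:**
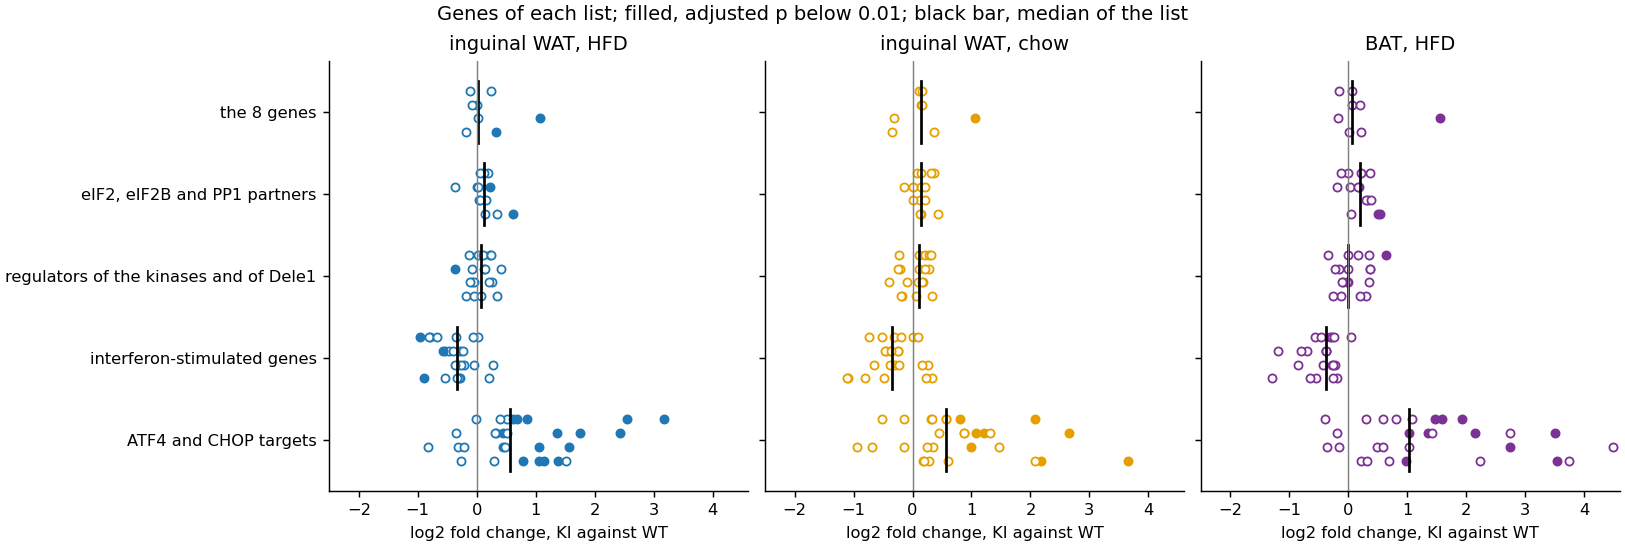
Log2 fold change of KI against WT mice for each gene of the members and the 4 lists (1 point per gene, bar at the median) in the 3 genotype comparisons. The ATF4 and CHOP targets have medians of 0.57, 0.57 and 1.04, and the interferon-stimulated genes medians of -0.34, -0.34 and -0.38.

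Other measures moved with genotype beside these results, and their part in them was not tested. The share of reads from mitochondrially encoded genes was 2.15% to 3.68% in KI and 5.40% to 14.8% in WT mice in inguinal WAT on HFD, 1.73% to 3.84% and 2.39% to 5.12% on chow, and 10.6% to 12.8% and 14.6% to 18.4% in BAT; leaving these genes out changed no genotype call of a member. The 5 brown adipocyte markers summed to 64.3 to 476 CPM in KI and 8.21 to 47.2 CPM in WT mice on chow, and to 11.3 to 37.6 and 4.82 to 13.6 CPM on HFD in inguinal WAT; Cidea, the 1 of the 5 tested there, was called in both, while Ucp1 averaged under 1 CPM. The 5 fibroblast markers summed to 1642 to 2734 CPM in KI and 2119 to 3633 CPM in WT inguinal WAT on HFD, 1742 to 2734 and 2239 to 5410 CPM on chow, and 334 to 607 and 515 to 1247 CPM in BAT, with 1 of 5, Dpt, called lower each time. Of 7 macrophage markers, 1 (Itgax, -1.44) was called lower on HFD in inguinal WAT and 0 elsewhere.

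Genes whose levels varied most like each member within groups were looked for by Pearson's r of log2 CPM over the 41 columns after each group's mean was subtracted, and named where the highest r was at least 0.8. This named Rufy4 (0.833), Odr4 (0.826) and Nupr1 (0.823) for Eif2ak2. All 3 rested on BAT KI mouse 5, with its 4 counts: without it r was 0.735, 0.606 and 0.595. For Eif2ak1 the values were similar but below that bound, and rested on chow KI mouse 4: r with Sar1b was 0.786 with it and 0.440 without it. No other member had a gene above the bound over the 41 columns.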

How the data were processed

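RNA of 41 adipose samples was sequenced as poly(A)-selected, paired reads of 150 bases, with 2 libraries per mouse in inguinal WAT on HFD. The authors trimmed and aligned the reads to GRCm38 and deposited raw counts per gene; the submitters' processing notes name cutadapt, STAR, SAMtools and featureCounts, with versions and strand setting not given in the sources used here. From the deposited counts, 52853 genes with a count and length in all 3 tables were kept. Genes were tested with edgeR 4.0.16 (R 4.3.3; TMM, filterByExpr, robust quasi-likelihood) within each table, on genotype alone; interactions and comparisons between tables used the same settings. SE is the log2 fold change over the root of F. Levels are CPM with TMM factors over all 41 columns, or these per kb of gene length. Intervals are 95%. The code was tested on simulated data.

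Alternatives were DESeq2 1.42.0, other scalings, filters and thresholds, a replicate block, 1 fit of all groups and leaving out each mouse. The members, gene lists (eIF2, eIF2B and phosphatase 1 partners; regulators; ATF4 and CHOP targets; interferon-stimulated genes; cell type markers of adipocytes, brown adipocytes, macrophages, lymphocytes, endothelium, fibroblasts, skeletal muscle, erythroid cells and epithelium) and tests were chosen with earlier results of these data known. Named genes are the members, Mfn2, Oma1, Atf4, Ddit3, Trib3, the called gene of highest and of lowest log2 fold change of each list in each genotype comparison, and the 3 genes most like a member where r reached 0.8 among genes of at least 5 CPM on average; any other gene was chosen after its values were seen. Nothing says whether BAT and inguinal WAT came from the same mice.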

Additional observations from a re-analysis of the deposited data

Results flagged for a closer look

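In 10 of 78 sets of mice, each a gene in a group, the highest or lowest mouse stood apart from the others by Dixon's criterion, which chance alone passes in about 5% of such sets. Among the kinases, Eif2ak1 was highest in chow KI mouse 4 (83.6 CPM), the mouse with the high skeletal muscle genes, and lowest in chow WT mouse 1 (40.2 CPM). Eif2ak2 was lowest in chow KI mouse 3 (3.59 CPM), a mouse with high lymphocyte markers. Eif2ak3 was highest in BAT KI mouse 5 (23.7 CPM), the mouse in which Eif2ak2 rested on 4 counts. Eif2ak4 was highest in BAT WT mouse 4 (21.9 CPM) and in chow WT mouse 4 (19.3 CPM), the mouse with the high epithelium and macrophage markers, and Oma1 was highest in that same chow mouse (17.1 CPM). Without it the genotype difference of Oma1 on chow was -0.11 in place of -0.20 on the log2 scale. Eif2s1 was highest in KI mouse 1 in inguinal WAT on HFD (73.1 CPM). Atf4 was lowest in KI mouse 2 there (221 CPM), another mouse with high lymphocyte markers, and Mfn2 was highest in BAT WT mouse 1 (380 CPM). Ppp1r15a, Ppp1r15b and Dele1 had no such mouse in any group, although Ppp1r15a in BAT KI mouse 6 lay among the WT mice.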

How the results depend on the processing

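Of the log2 fold changes of members called at first, 64 kept their direction and call under settings that kept all mice and 4 lost the call; over leaving out each mouse, 126 kept it and 16 lost it. Ppp1r15a kept its call in inguinal WAT under every alternative run. In inguinal WAT on HFD the members called fell from 2 to 1 at an adjusted p below 0.001 (5.34% of all genes called). They were also 1 with 1 fit of all groups (7.67%) and with the replicate block (9.38%). Over leaving out each mouse they were 1 to 2 (8.82% to 14.1%). On chow they rose from 1 to 2 at an adjusted p below 0.05 (8.56% of all genes) and with DESeq2 (7.66%). They were 1 to 2 there over leaving out each mouse (1.99% to 3.36%). In BAT they fell from 1 to 0 at an adjusted p below 0.001 (0.445% of all genes) and with no filter on low counts (1.21%). Without that filter the log2 fold change of Ppp1r15a was 1.56 (adjusted p = 0.0143). Between tissues they fell from 5 to 3 at an adjusted p below 0.001 (44.3% of all genes) and were 6 with library size only (66.7%). Between WT diets they rose from 1 to 4 at an adjusted p below 0.05 (41.9% of all genes). They rose to 3 there with DESeq2 (33.1%) and with at least 10 counts in every mouse (32.0%). With RLE size factors (27.8%) or without mitochondrially encoded genes (28.0%) they were 2. Over leaving out each mouse they were 1 to 3 (23.5% to 31.1%).

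Directions turned only for differences that were not called: Eif2ak1 on HFD (-0.0020 with DESeq2 and with RLE size factors, -0.0041 with 1 fit), Eif2s1 on HFD (0.0077, library size only), Eif2ak3 in BAT (-0.00105 without mitochondrially encoded genes, -0.017 with the replicate block), the diet difference of Eif2ak1 (0.011) and Ppp1r15b (0.097), the tissue difference of Eif2ak1 (-0.018) and the WT tissue difference of Ppp1r15a (-0.37), the last 4 with library size only. Over leaving out each mouse, these differences crossed 0: on HFD Eif2ak1 (-0.026 to 0.028) and Eif2ak2 (-0.036 to 0.107); on chow Eif2ak1 (-0.032 to 0.199); in BAT Eif2ak2 (-0.395 to 0.049), Eif2ak3 (-0.129 to 0.075) and Eif2ak4 (-0.051 to 0.155); between the diets in the KI effect Eif2ak1 (-0.184 to 0.052), Ppp1r15a (-0.046 to 0.129) and Ppp1r15b (-0.092 to 0.023); between the tissues Eif2ak2 (-0.408 to 0.043) and Ppp1r15b (-0.202 to 0.015); and between the WT diets Eif2s1 (-0.079 to 0.030).

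Thresholds aside, numbers called over all genes that moved by over 1.5 times were, with DESeq2, 1121 on chow, 715 in BAT, 414 between the diets and 844 between the tissues; with 1 fit, 1242 on HFD, 1088 on chow and 834 in BAT; 102 on chow with the replicate block; and, between the diets, 168 with at least 10 counts and 175 with library size only. Over leaving out each mouse they ranged from 288 to 497 on chow (from 472), 134 to 313 in BAT (from 243) and 69 to 269 between the diets (from 110), and moved by over 1.5 times without any of KI mice 2 and 6 and WT mice 2, 3 and 6 on chow, KI mouse 2 and WT mice 3, 4 and 6 in BAT, and, between the diets, KI mice 1 and 5 and WT mice 4 and 7 on chow and KI mouse 7 and WT mouse 7 on HFD. Correlations did not settle whether replicate numbers pair the mice: same-numbered mice correlated from -0.244 to 0.654 on HFD, -0.276 to 0.179 on chow and -0.0768 to 0.432 in BAT. The KI mouse was most like the WT mouse of its own number in 1 of 8 cases on HFD, 0 of 6 on chow and 3 of 6 in BAT. With the replicate block, 363 genes were called in BAT in place of 243. The replicate block took the call of Ppp1r15b on HFD (0.33, adjusted p = 0.0156) and changed no other call of a member. Eif2ak2 in BAT, with 4 to 37 counts per mouse, had the widest interval of the members. The causes of these changes were not tested.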
